A study of Mus musculus with 15 samples.

Results

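The SR splicing factor genes Srsf1, Srsf2, Srsf3, Srsf5, Srsf6, Srsf7, Srsf11 and Tra2a and the kinase genes Clk1 and Clk4 were followed in mouse LSK cells. This sorted population lacks lineage markers, carries Sca-1 and c-Kit, and contains the stem cells and earliest progenitors of the marrow. The genes were found by symbol among the 45232 genes counted, and all 10 were among the 17834 genes that passed the filter on low counts and were tested. CD45.2+ LSK cells on a C57BL/6J background were sequenced in 5 groups of 3 libraries. The WT group carried neither mutation, and whether its cells came from transplanted hosts is not stated. The other groups came from CD45.1 hosts that had been transplanted with CD45.2 donor cells carrying IDH2 R140Q and JAK2 V617F together with CD45.1 WT competitor cells, and the hosts then received vehicle, AG221, ruxolitinib or both drugs. Both mutant alleles were switched on by Mx1-Cre, which is induced with polyI:polyC and acts beyond blood cells. AG221 (40 mg/kg in the labels), an inhibitor of mutant IDH2, and ruxolitinib (60 mg/kg), an inhibitor of JAK kinases, were given by gavage for 21 to 28 days, with the last dose about 1.5 hours before sacrifice. The paper used male and female mice over a range of ages in its experiments. The age and sex of the mice behind each library, and whether cells of several mice were pooled, are not stated, so p-values measure the spread between these libraries, which may be partly technical.

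SR proteins bind exonic enhancers through an RNA recognition motif and recruit the spliceosome through a domain rich in arginine and serine. CLK kinases phosphorylate that domain and so release SR proteins from nuclear speckles. Many SR genes limit their own output by splicing in a poison exon or keeping an intron, which yields transcripts that are degraded or held in the nucleus, and Clk1 and Clk4 are regulated by retained introns in a similar way. Splicing factors of this class matter in blood because Srsf2 is recurrently mutated in human myeloid neoplasms.

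Total counts ran from 18836625 to 32174287 per library, and the members had between 553 and 33931 counts in each library, so counting error was small against the spread between libraries. LSK markers were detected in every library, with a summed level of 4144 to 4569 CPM in WT, 2125 to 3559 in vehicle, 2283 to 2559 in AG221, 2686 to 3221 in ruxolitinib and 2647 to 3476 in combined libraries. Neutrophil lineage markers summed to 3260 to 3608 CPM in WT, 7283 to 12070 in vehicle, 15960 to 18770 in AG221, 11480 to 18300 in ruxolitinib and 3962 to 7028 in combined libraries, and each of these 8 genes had counts in every library. Between WT and vehicle libraries, the sums of megakaryocyte markers (198 to 257 against 730.4 to 784 CPM), mast cell and basophil markers (71.0 to 149 against 535 to 989) and erythroid markers (65.8 to 100 against 176 to 318) were higher in vehicle, and that of plasma cell markers (597 to 1291 against 65.7 to 157) was lower. Single genes of these lists, among them Gp1bb, Ppbp, Prss34, Tpsb2 and Klf1, overlapped between WT and vehicle. Of the neutrophil lineage markers, Camp, S100a8 and S100a9 overlapped as well, while Mpo stood at 2164 to 2388 CPM in WT and 5191 to 7870 in vehicle. In combined library B24, Ltf, Camp, S100a8, S100a9 and Ngp lay below every WT library and Elane, Mpo and Prtn3 above. The erythroid sum reached 1115 CPM in ruxolitinib libraries, with Hbb-bs at 609 CPM in A16. The part of these cells in the results below was not tested, and in bulk samples fewer cells of a type and less RNA per cell cannot be told apart. Xist stood at 453 to 510 CPM in WT libraries and at no more than 19.5 CPM in the 12 mutant libraries, whereas Ddx3y on the Y chromosome stood at 124 to 206 CPM in the mutant libraries and at no more than 0.100 CPM in WT, so genotype and sex cannot be told apart in comparisons with WT. The names of all combined and WT libraries start with the letter B and those of the other groups with A. What the letters mean is not stated, and they cannot be told apart from those groups. The knocked-in point changes cannot be checked from gene counts.

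Libraries A8 and A10 (AG221) and A16 (ruxolitinib) stood apart in a measure over many genes. The median log2 level of the 4437 tested genes with the highest transcript GC content (54.1% or more), taken against each gene's mean over 15 libraries, was -0.60 in A8, -0.40 in A10 and -0.16 in A16. It lay between -0.053 and 0.21 in the other 12 libraries. Results that rest on these libraries are given with and without them.

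Compared per length, as TMM-scaled CPM (read counts relative to the size of the library) divided by kilobases of merged exons, Srsf5 (mean 250.2 ± 25.8, SD, n = 15 libraries) and Srsf7 (249.5 ± 44.9) were the most abundant members and did not differ beyond their spread. Srsf3 followed at 109.9 ± 25.7. Srsf1 (58.7 ± 22.8), Srsf6 (54.8 ± 29.8), Clk1 (44.4 ± 6.10), Srsf11 (36.6 ± 12.1) and Clk4 (32.2 ± 4.53) formed a middle range in which each neighbour lay within the spread of the next. Srsf2 (17.4 ± 10.5) and Tra2a (12.0 ± 4.02) were lowest. The order of the lower members and the distances between the upper ones depend on the length used. Divided by the longest coding transcript instead, Srsf5 (636), Srsf7 (369) and Srsf3 (331.6) kept their places, Clk1 (201), Srsf11 (99.5) and Clk4 (95.9) stood ahead of Srsf6 (74.7) and Srsf1 (62.5), and Tra2a (46.2) stood ahead of Srsf2 (27.1). Across the 15 libraries the ratio of highest to lowest CPM was 7.57 for Srsf6, 5.37 for Srsf2, 3.76 for Srsf1, 3.54 for Srsf11, 3.26 for Tra2a and 2.04 for Srsf3. It was between 1.44 and 1.69 for Srsf5, Clk4, Clk1 and Srsf7.

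**Figure D1:**
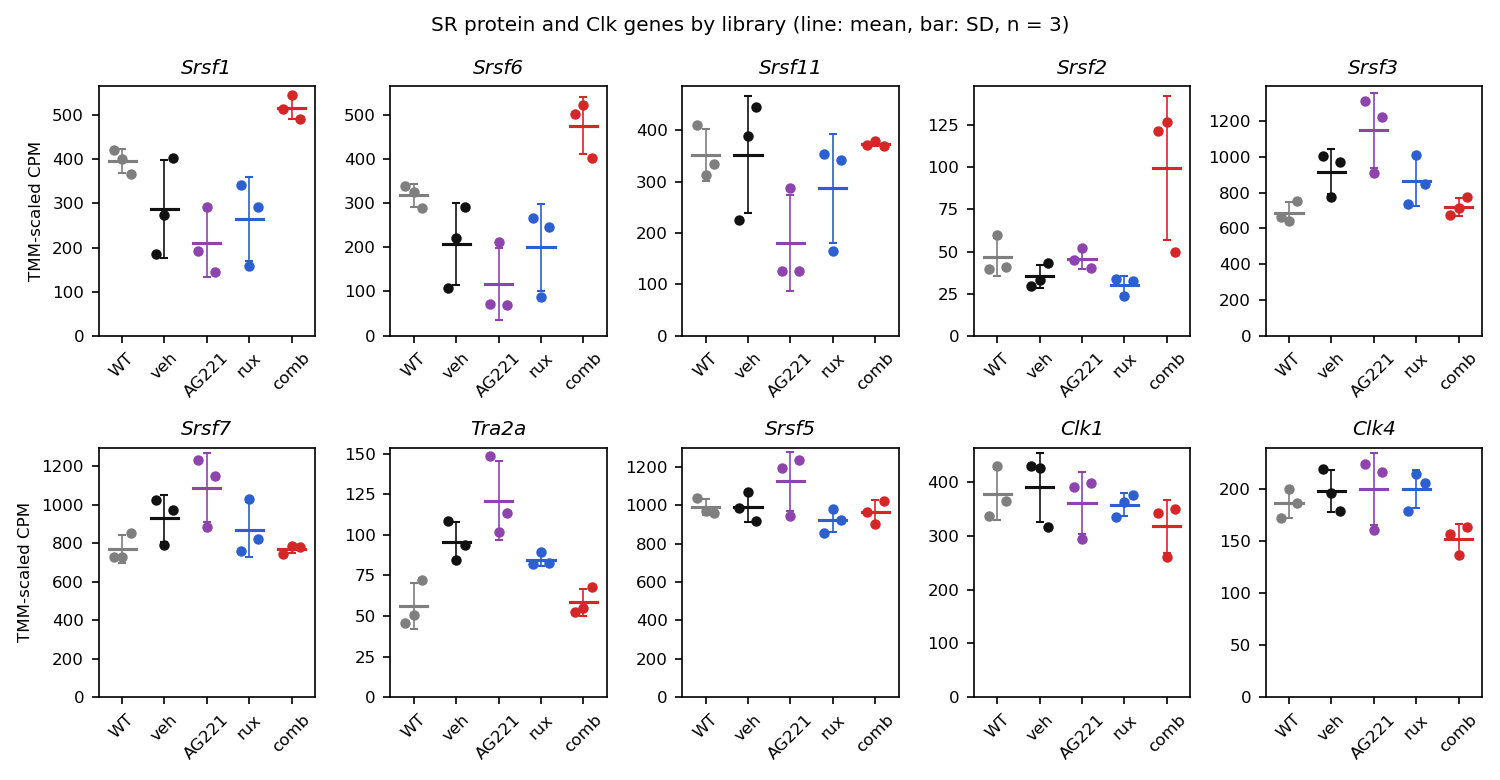
TMM-scaled CPM of each gene (vertical axis from 0) in the 3 libraries of each group (points), with the mean (line) and SD (bar). Srsf1 and Srsf6 are high in every combined library, Tra2a is low in WT and combined libraries, and Srsf2 is high in 2 of 3 combined libraries.

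The promoters of Tra2a, Srsf2, Srsf1 and Srsf6 are shown because Tra2a and Srsf2 were the members called between vehicle and combined libraries, and Srsf1 and Srsf6 were higher in every combined than in any vehicle library. Each is the 250 bases before the RefSeq start in GRCm38.p6, 5′ to 3′ on the strand of the gene, and all lie outside the annotated exons of the gene. Capitals mark matches on either strand to the cyclic AMP response element TGACGTCA, its core TGACG and the CCAAT box (searched as ATTGG). The Tra2a window is chr6:49264053-49264302 (minus strand), that of Srsf2 chr11:116853095-116853344 (minus), that of Srsf1 chr11:88047123-88047372 (plus) and that of Srsf6 chr2:162931258-162931507 (plus).
Tra2a: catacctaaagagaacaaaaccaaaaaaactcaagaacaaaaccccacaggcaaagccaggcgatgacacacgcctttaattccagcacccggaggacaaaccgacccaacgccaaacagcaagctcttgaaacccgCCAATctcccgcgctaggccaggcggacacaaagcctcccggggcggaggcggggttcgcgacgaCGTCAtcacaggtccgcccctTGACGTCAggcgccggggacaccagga
Srsf2: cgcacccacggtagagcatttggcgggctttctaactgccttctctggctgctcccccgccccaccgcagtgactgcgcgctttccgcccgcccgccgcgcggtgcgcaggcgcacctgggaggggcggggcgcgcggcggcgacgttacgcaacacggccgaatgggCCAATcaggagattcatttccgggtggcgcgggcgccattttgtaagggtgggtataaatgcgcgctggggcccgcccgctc
Srsf1: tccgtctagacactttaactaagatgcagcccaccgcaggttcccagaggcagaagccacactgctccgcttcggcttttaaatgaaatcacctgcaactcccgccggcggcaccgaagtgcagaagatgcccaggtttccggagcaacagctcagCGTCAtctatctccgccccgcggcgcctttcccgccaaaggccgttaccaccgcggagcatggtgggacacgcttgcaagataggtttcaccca
Srsf6: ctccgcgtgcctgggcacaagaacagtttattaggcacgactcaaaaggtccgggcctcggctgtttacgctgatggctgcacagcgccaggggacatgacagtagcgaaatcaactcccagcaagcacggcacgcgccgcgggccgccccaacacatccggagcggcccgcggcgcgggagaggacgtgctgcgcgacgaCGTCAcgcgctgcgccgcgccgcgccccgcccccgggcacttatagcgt

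RefSeq promoter windows were matched for 9 of the 10 members, with 2 for Srsf11 and none for Clk1. The full element TGACGTCA was found in 2 of the 10 windows, those of Tra2a and Clk4, and in 1.55% of the 32851 windows of all genes. Its core TGACG, which the full element contains, was found in 7 of 10 windows and in 17.8% of all. The GC box GGGCGG was found in 9 windows and in 32.7% of all. The STAT motif TTCNNNGAA (7.02% of all windows) and the AP-1 motif TGACTCA (4.46%) were in none of the 10. The 10 windows held 56.8% to 69.6% GC, against a median of 52.4% over all windows, and the shares above were not adjusted for this. All the motif hits are matches of letters in a window and not measured binding.

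Tra2a, a transformer-2 protein that promotes inclusion of exons with purine-rich enhancers, was the 1 member called between untreated mutant cells and WT. It stood at 45.5, 50.4 and 72.3 CPM in WT libraries and at 108, 84.4 and 93.8 CPM in vehicle libraries. The groups did not overlap. The log2 fold change was 0.77 (SE 0.19, edgeR adjusted p = 0.0120), a 1.70-fold higher level in vehicle, with 1 of 10 members called where 33.3% of all tested genes were. The call was lost without WT library B30 (adjusted p = 0.0604).

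Srsf3, the smallest SR protein and an mRNA export adaptor, was at 664, 644 and 753 CPM in WT and at 1006, 775 and 971 CPM in vehicle libraries. Its groups also did not overlap, as in 56.9% of tested genes, and the log2 fold change of 0.42 (SE 0.16) missed the threshold (adjusted p = 0.0599). Srsf6, which is known for enhancer-dependent exon inclusion, ran the other way, with 339, 326 and 289 CPM in WT and 109, 222 and 291 CPM in vehicle libraries. The vehicle libraries spread widely, with A1 lowest, and the log2 fold change of -0.62 (SE 0.47) was not called (adjusted p = 0.317). The other members, none called, were Srsf1 (-0.46), Srsf2 (-0.40), Srsf7 (0.27), Clk4 (0.088), Clk1 (0.050), Srsf11 (0.0019) and Srsf5 (0.00038) on the log2 scale.

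No member passed the threshold between AG221 and vehicle (edgeR, 0 of 10 members against 0.987% of all genes, with 1 member at an unadjusted p under 0.05). DESeq2 also called 0 of 10, where it called 2306 of 13612 genes. The AG221 libraries differed among themselves. Srsf6 was at 72.3 CPM in A8 and 69.1 CPM in A10 but at 211 CPM in A9. Srsf11, an SR-related protein of nuclear speckles, was at 126 and 127 CPM in A8 and A10 and at 288 CPM in A9, against 225, 388 and 445 CPM in vehicle libraries. Its log2 fold change was -0.97 (SE 0.35, adjusted p = 0.120). Library A9 thus lay with the vehicle libraries for both genes while A8 and A10, the libraries low in GC-rich transcripts, lay below them. The values depended on which libraries stood for AG221. Srsf6 was at -0.82, Srsf1 at -0.46, Srsf11 at -0.97 and Srsf3 at 0.32 on the log2 scale with all libraries. Without A8, A10 and A16, which leaves A9 as the lone AG221 library, Srsf6 was at -0.0013, Srsf1 at -0.0018, Srsf11 at -0.32 and Srsf3 at -0.029. Without A9, Srsf6 was at -1.56, Srsf11 at -1.49 and Srsf3 at 0.46, and these 3 members were called, where 4672 of 19125 genes were. The other members with all libraries were Srsf2 (0.38), Tra2a (0.34), Srsf7 (0.23), Srsf5 (0.18), Clk1 (-0.11) and Clk4 (0.016).

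Against WT, AG221 libraries differed in 6 of 10 members where 50.7% of all genes were called. Tra2a (1.11, SE 0.19, adjusted p = 0.000839), Srsf3 (0.74, SE 0.16, adjusted p = 0.00288) and Srsf7 (0.50, SE 0.15, adjusted p = 0.0173) were higher on the log2 scale. Srsf7 is an SR protein with a zinc knuckle that, like Srsf3, links splicing to export. Srsf6 (-1.43, SE 0.48, adjusted p = 0.0232), Srsf1 (-0.92, SE 0.31, adjusted p = 0.0264) and Srsf11 (-0.97, SE 0.35, adjusted p = 0.0338) were lower. With A8, A10 and A16 left out together, which leaves A9 as the lone AG221 library without a spread of its own, the values were 0.84 for Tra2a, 0.40 for Srsf3, 0.19 for Srsf7, -0.59 for Srsf6, -0.45 for Srsf1 and -0.30 for Srsf11. Leaving out A8, A10, B28 or B30 one at a time left 2 members called, and these were Tra2a and Srsf3. All genes called in those fits ran from 6479 of 19121 without A8 to 7689 of 18684 without B28. Of the members not called, Srsf5 was at 0.18, Clk4 at 0.10, Clk1 at -0.063 and Srsf2 at -0.025.

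No member passed the threshold between ruxolitinib and vehicle (edgeR, 0 of 10 members called against 0.0168% of all genes, 0 at an unadjusted p under 0.05). DESeq2 called 0 of 10 as well, where it called 50 of 19464 genes. The log2 differences were -0.30 for Srsf11, -0.23 for Srsf2, -0.17 for Tra2a, -0.12 for Clk1, -0.12 for Srsf1, -0.10 for Srsf5, -0.094 for Srsf7, -0.084 for Srsf3, -0.054 for Srsf6 and 0.014 for Clk4. Without A16 and the AG221 libraries A8 and A10, Srsf1 was at 0.13, Srsf6 at 0.29 and Clk4 at -0.046, still with 0 members called. Tra2a was at 82.3, 89.4 and 82.8 CPM, above every WT library, and it was the 1 member of 10 called against WT, where 32.3% of genes were (log2 fold change 0.60, SE 0.19, adjusted p = 0.0321). That call was lost without any 1 of A14, A16, A17, B28 or B30, with adjusted p-values from 0.0523 to 0.123. The other members against WT were Srsf6 (-0.67), Srsf2 (-0.63), Srsf1 (-0.59), Srsf11 (-0.30), Srsf3 (0.33), Srsf7 (0.18), Srsf5 (-0.10), Clk4 (0.10) and Clk1 (-0.075), none called.

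Srsf2, which encodes the SR protein of speckles that is mutated in human myeloid disease, was higher in combined than in vehicle libraries. Srsf2 was at 29.6, 33.1 and 42.9 CPM in vehicle libraries and at 122, 127 and 50.0 CPM in combined libraries. The groups did not overlap, but B26 lay far below B24 and B25 and under the highest WT library (39.4, 59.5 and 40.6 CPM). The log2 fold change was 1.50 (SE 0.31, adjusted p = 0.00695), or 2.82-fold, and it kept its call with each library left out. Tra2a was called lower under combined treatment, from the vehicle values above to 52.3, 55.2 and 67.6 CPM, a range inside that of WT. The log2 fold change was -0.71 (SE 0.19, adjusted p = 0.0282), and this call was lost without A1, A4, B24 or B25 (adjusted p from 0.0599 to 0.126). These were the 2 of 10 members called, where 12.5% of all genes were.

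Srsf1, the founding SR protein, and Srsf6 were higher in all combined libraries than in any vehicle library without passing the threshold. Srsf1 was at 514, 546 and 493 CPM in combined and 184, 274 and 404 CPM in vehicle libraries (log2 fold change 0.85, SE 0.31, adjusted p = 0.0976). Srsf6 was at 501, 523 and 402 CPM in combined libraries (log2 fold change 1.20, SE 0.47, adjusted p = 0.119). Srsf3 (-0.35, SE 0.16, adjusted p = 0.184) and Srsf7 (-0.27, SE 0.15, adjusted p = 0.294) were lower in all combined libraries than in any vehicle library. With Clk4, described below, the groups did not overlap in 7 of 10 members, where they did not in 34.7% of all genes. The remaining members were Clk1 (-0.30), Srsf11 (0.082) and Srsf5 (-0.038). Libraries A8, A10 and A16 are in neither group but feed the shared estimate of spread. Without them the log2 fold changes were 1.46 for Srsf2, 1.15 for Srsf6, 0.81 for Srsf1, -0.74 for Tra2a and -0.41 for Clk4.

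The Srsf2 gene shares 25.3% of its merged exon length with Mfsd11 and Mettl23 on the opposite strand, and the strand setting of the counting is not stated. Neither neighbour was called in that comparison. Mfsd11 differed by -0.063 (SE 0.16, adjusted p = 0.853) and Mettl23 by -0.12 (SE 0.15, adjusted p = 0.668) on the log2 scale between combined and vehicle libraries.

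No member passed the threshold between combined treatment and WT by edgeR (0 of 10 called against 3.25% of all genes, with 1 at an unadjusted p under 0.05). DESeq2 called 1, where it called 1804 of 21668 genes. This was Srsf2, whose edgeR log2 fold change was 1.10 (SE 0.30, adjusted p = 0.0622). The groups did not overlap in 3 of 10 members, where they did not in 41.6% of all genes. Srsf6 (0.58, SE 0.47, adjusted p = 0.455) and Srsf1 (0.38, SE 0.31, adjusted p = 0.460) were above every WT library in all 3 combined libraries, and Clk4 (-0.29, SE 0.14, adjusted p = 0.224) was below. Tra2a, at 0.058 (SE 0.19), lay within the WT range in every combined library. The others were Clk1 (-0.25), Srsf11 (0.083), Srsf3 (0.068), Srsf5 (-0.038) and Srsf7 (-0.00013).

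Against AG221 alone, 8 of 10 members were called under combined treatment, where 33.2% of all genes were. Srsf6 (2.02, SE 0.48, adjusted p = 0.00811), Srsf1 (1.30, SE 0.32, adjusted p = 0.00859), Srsf2 (1.12, SE 0.30, adjusted p = 0.0141) and Srsf11 (1.05, SE 0.35, adjusted p = 0.0343) were higher on the log2 scale. Tra2a (-1.05, SE 0.19, adjusted p = 0.00316), Srsf3 (-0.67, SE 0.16, adjusted p = 0.00804), Srsf7 (-0.50, SE 0.15, adjusted p = 0.0254) and Clk4 (-0.40, SE 0.14, adjusted p = 0.0494) were lower. Without A8, A10 and A16, with A9 as the lone AG221 library, the values were 1.16 for Srsf6, 0.81 for Srsf1, 0.91 for Srsf2, 0.36 for Srsf11, -0.81 for Tra2a, -0.35 for Srsf3, -0.21 for Srsf7 and -0.092 for Clk4. Left out one at a time, A8, A10, B24 or B25 reduced the count of members called to 4, and B26 to 5, while without A9 it was 9. Of all genes, 3002 of 19121 were called without A8, 4802 of 19145 without B26 and 8140 of 19125 without A9. Srsf5 (-0.22) and Clk1 (-0.18) were not called with all libraries.

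Against ruxolitinib, combined treatment differed in Srsf2 (edgeR log2 fold change 1.73, SE 0.31, adjusted p = 0.00324, 1 of 10 members against 12.4% of all genes). The ruxolitinib libraries held 33.9, 23.6 and 32.7 CPM of Srsf2, all below the combined libraries. Srsf1 (0.97, adjusted p = 0.0609) and Srsf6 (1.25, adjusted p = 0.108) missed the threshold in that fit, and both passed it with DESeq2 and with edgeR and no filter beyond 1 count. The others were Tra2a (-0.54), Clk4 (-0.39), Srsf11 (0.38), Srsf3 (-0.27), Srsf7 (-0.18), Clk1 (-0.17) and Srsf5 (0.066). No member passed the threshold between AG221 and ruxolitinib (edgeR, 0 of 10 against 3.43% of all genes, 3 at an unadjusted p under 0.05). DESeq2 called 0 of 10 there, where it called 2364 of 13612 genes. The log2 differences were -0.77 for Srsf6, -0.67 for Srsf11, 0.60 for Srsf2, 0.51 for Tra2a, 0.41 for Srsf3, -0.33 for Srsf1, 0.32 for Srsf7, 0.29 for Srsf5, 0.012 for Clk1 and 0.0024 for Clk4. Without A8, A10 and A16, with A9 as the lone AG221 library, they were -0.29 for Srsf6, -0.29 for Srsf11 and 0.19 for Srsf3. Without A9, 6 members were called, where 4808 of 19125 genes were.

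Whether the change under both drugs exceeded the sum of the changes under each was tested as a departure from additivity on the log2 scale. No member passed by edgeR (0 of 10 against 8.42% of all genes), although 6 had an unadjusted p under 0.05. Tra2a (-0.88, adjusted p = 0.0571), Srsf1 (1.42, adjusted p = 0.0582), Srsf2 (1.35, adjusted p = 0.0610) and Srsf6 (2.07, adjusted p = 0.0625) came nearest. DESeq2 called 5, these 4 and Srsf11, where it called 3632 of 16537 genes. The remaining edgeR values were Srsf11 (1.35), Srsf3 (-0.59), Clk4 (-0.41), Srsf7 (-0.40), Srsf5 (-0.12) and Clk1 (-0.060). Without A8, A10 and A16, with A9 as the lone AG221 library, the values were 0.87 for Srsf6, 0.68 for Srsf1, 1.002 for Srsf2, 0.39 for Srsf11 and -0.60 for Tra2a. Without A9 edgeR called 7 members (6087 of 19125 genes), without A1 it called 2 (1731 of 19116) and without B26 it called 1 (1460 of 19145).

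**Figure D2:**
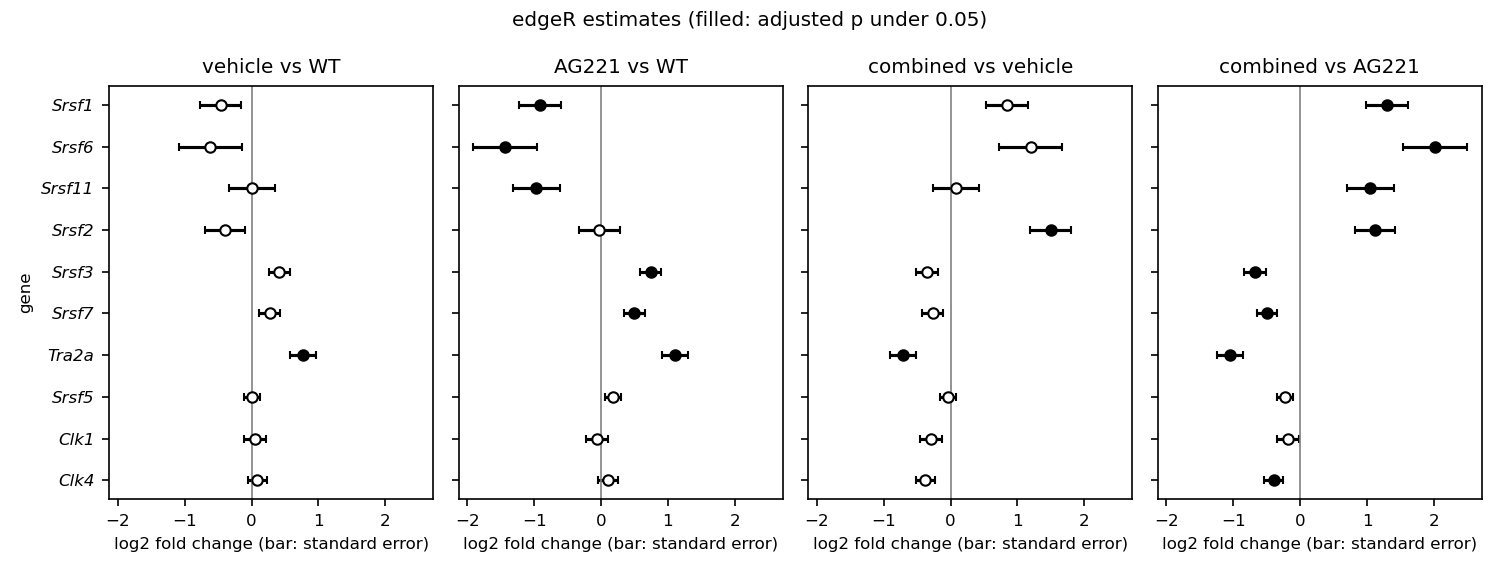
Log2 fold changes (horizontal axis) of the 10 genes in 4 comparisons, with standard errors (bars) and filled points for adjusted p under 0.05. In AG221 against WT and in combined against AG221, which share the AG221 libraries, Srsf1, Srsf6 and Srsf11 lie on the other side of 0 from Srsf3, Srsf7 and Tra2a.

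Both kinase genes varied little, with a highest to lowest ratio of 1.65 for Clk1 and 1.64 for Clk4. Clk1, which phosphorylates SR proteins and controls its own splicing, was at 336, 429.5 and 365 CPM in WT, 429.0, 425.5 and 316 CPM in vehicle, 390.4, 295 and 397 CPM in AG221, 334, 363 and 376.5 CPM in ruxolitinib and 342, 259.9 and 351 CPM in combined libraries. It was called in none of the 11 comparisons by edgeR, and all groups overlapped with vehicle. Clk4, its close relative, was at 218, 196 and 178.5 CPM in vehicle and 156, 136 and 163 CPM in combined libraries, which lay below every vehicle library (log2 fold change -0.38, SE 0.14, adjusted p = 0.108). Its single call, against AG221, was lost in each fit but 1 that left out a library, the one without A9. Srsf5, an SR protein first known as a growth response gene, was the steadiest member, at 858 to 1234 CPM over the 15 libraries, and was called in no comparison.

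Read across libraries, the SR genes fell into opposing sets. Over 15 libraries that share groups and technical properties, Srsf1 and Srsf6 had a Pearson r of 0.98 in log2 CPM (0.96 after group means were removed), Srsf6 and Srsf11 had 0.91 and Srsf3 and Srsf7 had 0.98. Srsf6 and Srsf7 had -0.89 (-0.81 after group means were removed), and Clk1 and Clk4 had 0.83. The values of Tra2a were weaker within groups. They went from -0.78 to -0.39 with Srsf1, from -0.82 to -0.53 with Srsf6 and from 0.92 to 0.73 with Srsf3. The 2 sets also followed the GC-rich transcripts. The median of those genes had an r of 0.89 with Srsf11, 0.88 with Srsf6 and 0.78 with Srsf1, and of -0.92 with Srsf3, -0.92 with Srsf7 and -0.78 with Tra2a. With the remaining members it had -0.76 for Srsf5, -0.66 for Clk4, -0.34 for Clk1 and 0.32 for Srsf2. Transcript GC content of the members themselves was 44.0% for Srsf1, 47.7% for Srsf6 and 46.2% for Srsf11, against 42.6% for Srsf3, 42.1% for Srsf7 and 43.9% for Tra2a, all under the 54.1% that bounds the GC-rich genes.

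**Figure D3:**
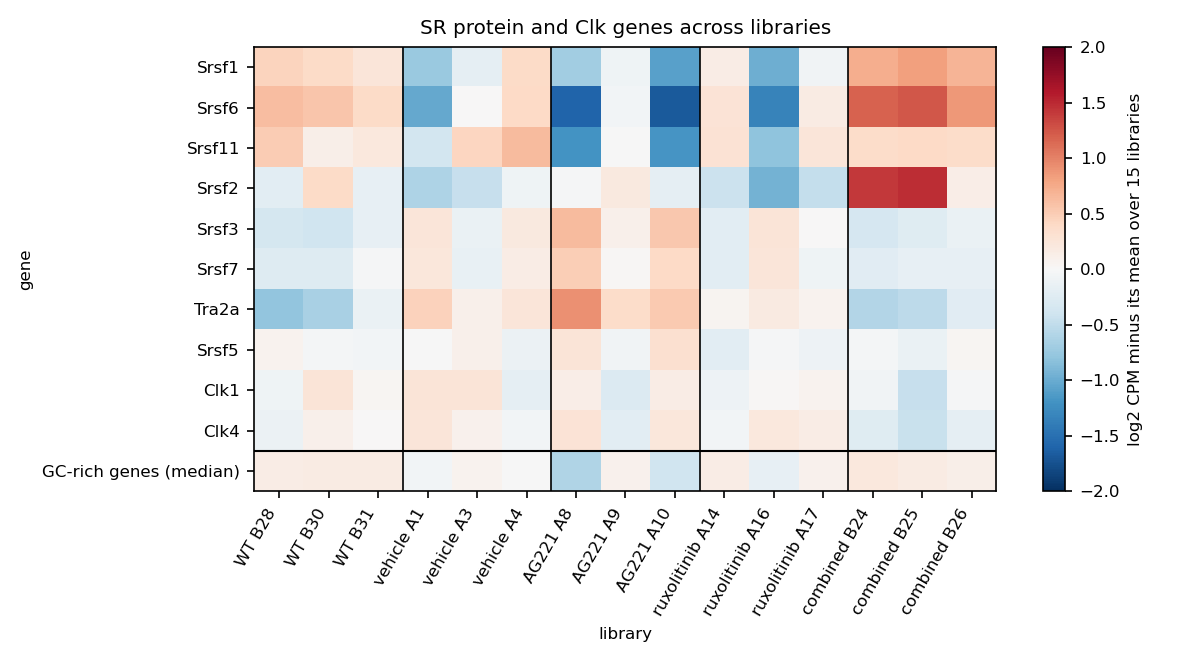
Log2 CPM of each gene minus its mean over 15 libraries (colour, from -2 to 2), by library and group, above the median of the GC-rich genes in the bottom row. A8, A10 and A16 are low for Srsf1, Srsf6 and Srsf11 and in the bottom row, and B24 and B25 are high for Srsf2.

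Setting GC content offsets per library changed some calls in comparisons with WT. The median of all genes moved with the offsets, from -0.091 to 0.27 for vehicle against WT, so values shift upward together. Vehicle against WT then had 5 members called (Srsf3, Srsf7, Tra2a, Clk1 and Clk4, all higher), where 7771 of 17751 genes were called. Ruxolitinib against WT had 4, where 7005 of 17751 genes were called. In AG221 against WT, where 9369 of 17751 genes were called, Srsf1, Srsf6 and Srsf11 lost their calls (adjusted p = 0.149, 0.0512 and 0.125). Srsf5 gained a call there (0.55, adjusted p = 0.00909). Srsf2 (1.29) and Tra2a (-0.86) stayed called in combined against vehicle, where 2501 of 17751 genes were called. The same 8 members were called in combined against AG221, where 6495 of 17751 genes were called. The part of GC content in the differences was not tested beyond these values.

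**Figure D4:**
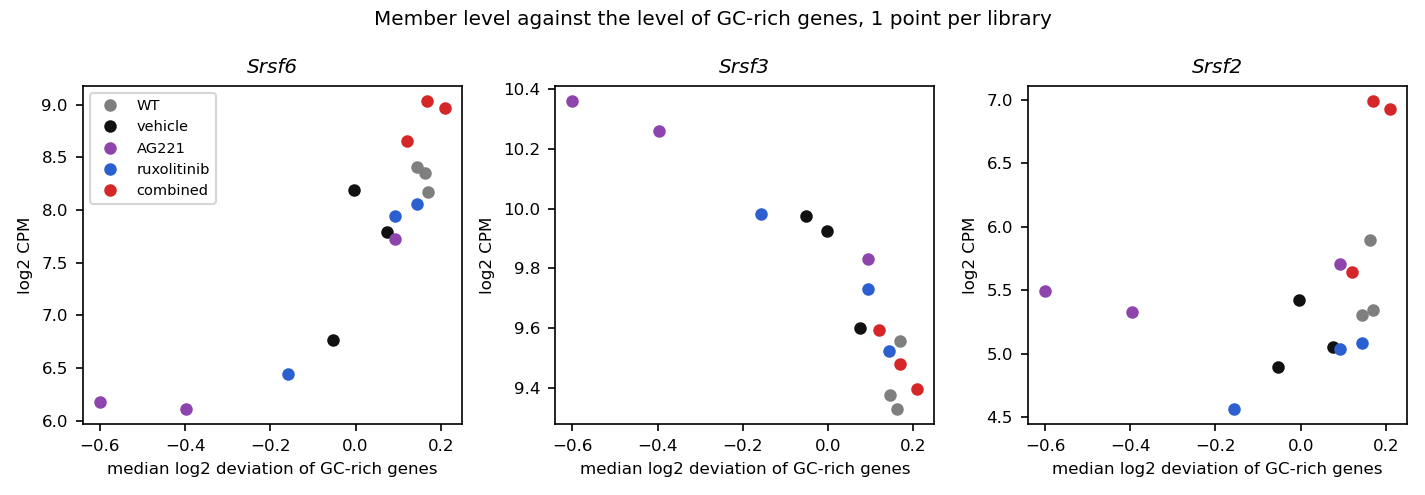
Log2 CPM of Srsf6, Srsf3 and Srsf2 (vertical axes) against the median log2 deviation of GC-rich genes (horizontal axis), with 1 point per library coloured by group. Srsf6 rises and Srsf3 falls along the axis, and the combined libraries B24 and B25 lie above the rest for Srsf2.

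Gene counts add all transcripts of a gene. The annotation lists at least 1 retained-intron and 1 nonsense-mediated decay transcript for every member, with 11 retained-intron transcripts for Srsf11 and 7 each for Clk1 and Clk4. A higher count can therefore come from coding or from noncoding transcripts, which cannot be told apart here. Srsf3 has stretches of at least 200 bases with 95% identity or more in 4 other genes and Srsf5 in 1, so their counts are less certain.

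The wider splicing machinery was read from lists of related genes, in which the count called is to be set against 33.3% of all genes in vehicle against WT and 12.5% in combined against vehicle. These comparisons share the vehicle libraries, so opposite signs in them are not independent. Of the other SR proteins, 2 of 5 rose and 2 fell in vehicle against WT (33.3% of all genes called). Tra2b, the paralog of Tra2a, rose by 1.01 (SE 0.14, adjusted p = 0.000808) and Srsf10 rose by 0.64 (SE 0.17, adjusted p = 0.0134), whereas Srsf9 (-1.35) and Srsf12 (-1.42) fell. In combined against vehicle, Tra2b fell by 0.70 on the log2 scale (SE 0.14, adjusted p = 0.00638), while Srsf9 (2.63, SE 0.46, adjusted p = 0.00356) and Srsf4 (1.51, SE 0.46, adjusted p = 0.0456) rose. The Tra2b calls held with each library left out. The calls of Srsf10 (without B30), Srsf9 (without A1, A3, A4 or B30) and Srsf12 (without A1, A3, A4, B30 or B31) in vehicle against WT were lost, with adjusted p from 0.0615 to 0.184, and so was that of Srsf4 in combined against vehicle (without A1, A3, A4, B24 or B25, adjusted p from 0.0874 to 0.175).

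Among core spliceosome genes, 24 of 39 rose and 0 fell in vehicle against WT, where 33.3% of all genes were called, with a median log2 fold change of 0.53 against -0.091 for all genes. In combined against vehicle, where 12.5% were called, 0 rose and 4 fell (median -0.24 against 0.037). Snrpc, a U1 particle protein, rose by 0.79 (SE 0.13, adjusted p = 0.00190) in vehicle, and Sf3a2, of the U2 particle, rose by 1.02 (SE 0.21, adjusted p = 0.00583). In combined against vehicle Sf3a2 fell by 0.84, a call lost without A1, A4, B24 or B25 (adjusted p from 0.0585 to 0.0954). The called count ranged from 4 to 34 in the first comparison and from 0 to 10 in the second over the alternative fits. All genes called moved as well, so the 33.3% and 12.5% apply to the main fit. They were 1901 of 18054 without B30 and 7771 of 17751 with GC content offsets in the first. In the second they were 1006 of 19116 without A1 and 2501 of 17751 with GC content offsets.

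Of 8 other kinases of SR proteins, 1 was called in vehicle against WT and 3 in combined against vehicle. Srpk1, which primes SR proteins in the cytoplasm, was the one called in the first (0.55, SE 0.15, adjusted p = 0.0190). Clk2 (1.28, SE 0.36, adjusted p = 0.0330) and Dyrk1a (0.55, SE 0.14, adjusted p = 0.0172) rose and Srpk3 fell (-1.38) in combined against vehicle. Srpk1 lost its call when A1, A4 or B30 was left out, Dyrk1a when A1, B24 or B26 was and Clk2 when A1, A3, B24 or B25 was, with adjusted p from 0.0540 to 0.146. Of the SR-related and speckle proteins, 6 of 24 rose and 3 fell in vehicle against WT (33.3% of all genes called), and 3 rose and 3 fell in combined against vehicle (12.5%). In vehicle against WT, Thrap3 (0.94) and Srrm1 (0.59), both of which bind spliced mRNA complexes, rose and Rsrp1 (-3.06) fell. In combined against vehicle, Thrap3 (-0.73) and Srrm1 (-0.46) fell and Rsrp1 (3.33) rose. The second call of Srrm1 was lost without A1, A4, B24, B25 or B26 (adjusted p from 0.0672 to 0.155).

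Of the hnRNP proteins, which often oppose SR proteins at splice sites, 8 of 25 rose and 3 fell in vehicle against WT (33.3% of all genes called), and 3 rose and 0 fell in combined against vehicle (12.5%), which is near the share of all genes. Ptbp3 (0.81) and Ptbp1 (0.64) rose and Hnrnpu (-0.78) and Hnrnph3 (-0.68) fell in vehicle, and Hnrnpd (1.20) and Hnrnpab (3.02) rose under combined treatment. Of 10 nonsense-mediated decay genes, where all genes again gave 33.3% and 12.5%, Smg9 (0.44) was the 1 called in vehicle against WT and Upf1 (2.61) the 1 called in combined against vehicle. Calls were lost for Hnrnpu without A1, B28 or B30, for Hnrnph3 without any 1 library, for Smg9 without A1, A4, B28 or B30 and for Upf1 without A1, A3, A4, B24 or B25, with adjusted p from 0.0530 to 0.168. Of 8 heat shock genes tested, 2 rose in vehicle against WT (33.3% of all genes called) and 3 fell in combined against vehicle (12.5%), among them Hspa1a (-6.60). Hspa1a stood at 2.33 to 8.46 CPM in vehicle and at 0 to 0.0925 CPM in combined libraries, below the level of 3 counts in each combined library. Of the immediate early genes, 15 of 19 were higher in vehicle than in WT (33.3% of all genes called) and 13 of 19 lower in combined than in vehicle (12.5%). Fos stood at 79.6 to 126 CPM in WT, 1819 to 4972 in vehicle, 1425 to 1730 in AG221, 1587 to 2498 in ruxolitinib and 33.4 to 129 in combined libraries, and its part in the member differences was not tested.

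No gene resembled the members as a group. The highest mean Pearson r to the 10 members was 0.19, for Snx10, Dbt, Gm18853, Phf20 and Clnk, since the members ran in opposite directions. Chosen after the values were seen, the gene closest to a single member was Rae1 for Srsf6 (r = 0.996), Utp18 for Srsf1 (0.991), Yrdc for Srsf2 (0.988), Kat2a for Srsf11 (0.985), Knop1 for Srsf7 (0.971) and Atic for Tra2a (0.962), each over 15 libraries.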

How the data were processed

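LSK cells were sequenced in 15 libraries, 3 in each of 5 groups taken from the treatment labels. RNA was amplified with the SMARTer method and read from both ends. The authors aligned reads to mm10 with STAR 2.5.1a, per the labels and methods, and deposited raw counts per Ensembl gene, which were used here. They also deposited counts normalized with DESeq2 1.6.3, which were not used. The Ensembl release and strand setting are not given in the sources used here. Symbols and exons came from GENCODE M21 (GRCm38), which matched 44585 of 45232 IDs. Promoters came from RefSeq (GRCm38.p6).

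Genes were filtered with filterByExpr, scaled by TMM and tested in 1 quasi-likelihood fit of 5 groups (edgeR 4.0.16, R 4.3.3) with Benjamini-Hochberg adjustment over 17834 genes and a threshold of 0.05. Log2 CPM used a prior count of 2. The scripts were tested on simulated data. The alternatives were DESeq2 1.42.0, RLE or upper quartile normalization, other count filters, fits of only the groups compared, GC content offsets (lowess span 0.3) and each library left out. Leaving out A8, A10 and A16 together (GC-rich median under -0.1) and the length of the longest coding transcript were added after seeing the data. The members and the gene lists were chosen with earlier results of these data known. All 10 members are named in every comparison, and of each other list up to 2 genes with the smallest p in each direction in vehicle against WT and combined against vehicle. Some genes that the likeness ranking returned are not reported here.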

Additional observations from a re-analysis of the deposited data

How the results depend on the processing

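Of the 110 log2 fold changes (10 members in 11 comparisons), 19 were called. Over 1600 alternative values, 1358 kept direction and side of the threshold, 70 lost the call, 62 gained one and 110 changed sign. No called fold change changed sign. The sign changes fell on 37 fold changes of at most 0.40 in size and adjusted p of 0.166 or more, most often of Srsf5 (9), Clk1 (8) and Clk4 (6).

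The number of all genes called also moved between fits. With GC content offsets, 7771 of 17751 were called in vehicle against WT and 7005 of 17751 in ruxolitinib against WT. The number of members called moved as follows, and the causes were not tested. In vehicle against WT (1) it was 5 with GC content offsets, and the log2 fold change of Srsf3 was 0.43 without A8, A10 and A16. For combined against vehicle (2), values without A8, A10 and A16 are given above. In combined against WT (0) it was 1 with no filter beyond 1 count, with GC content offsets, with only the groups compared and with DESeq2. All genes called there were 858 of 37904, 1240 of 17751, 1788 of 16941 and 1804 of 21668, in that order. In combined against AG221 (8) it was 5 with only the groups compared, where 3788 of 15201 genes were called. For AG221 against WT (6), calls that moved with GC content offsets are given above. In ruxolitinib against WT (1) it was 4 with GC content offsets. It was 0 with upper quartile normalization (5031 of 17834 genes called) and with at least 10 counts in every library (4194 of 12732). In combined against ruxolitinib (1) it was 2 with upper quartile normalization (2261 of 17834 genes called), with at least 10 counts (2297 of 12732) and with only the groups compared (1808 of 15009). It was 3 with no filter beyond 1 count (1949 of 37904) and with DESeq2 (2975 of 17268). For the departure from additivity (0) it was 3 with upper quartile normalization (3124 of 17834 genes called) and with no filter (1878 of 37904). It was 2 with at least 10 counts (2485 of 12732) and 5 with DESeq2 (3632 of 16537). With each library left out in turn, the count ran from 0 to 2 in vehicle against WT, 0 to 3 in AG221 against vehicle, 0 to 0 in ruxolitinib against vehicle, 1 to 2 in combined against vehicle, 0 to 1 in combined against WT, 2 to 7 in AG221 against WT, 0 to 1 in ruxolitinib against WT, 4 to 9 in combined against AG221, 1 to 1 in combined against ruxolitinib, 0 to 6 in AG221 against ruxolitinib and 0 to 7 for the departure. The highest counts in comparisons with AG221 and in the departure came without A9. The count of all genes called was also highest there among the fits with a single library left out. These fits tested 18054 to 19145 genes. All genes called ran from 1901 to 5907 in vehicle against WT and 1006 to 1965 in combined against vehicle. They ran from 88 to 415, 6479 to 10793 and 1910 to 5074 against WT in combined, AG221 and ruxolitinib. AG221 and ruxolitinib against vehicle had 0 to 4672 and 0 to 9. Combined against AG221 had 3002 to 8140, combined against ruxolitinib 1137 to 1899, AG221 against ruxolitinib 0 to 4808 and the departure 44 to 6087.

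The values that changed sign, on the log2 scale, were these. With upper quartile normalization, Srsf5 -0.088, Srsf11 -0.10 and Clk1 -0.036 (vehicle against WT), Clk1 0.086 (AG221 against vehicle), Srsf11 -0.016 (combined against vehicle), Srsf3 -0.13, Srsf11 -0.12 and Tra2a -0.14 (combined against WT), Srsf2 0.061 and Clk1 0.049 (AG221 against WT), Srsf5 -0.064 (combined against ruxolitinib). With at least 10 counts required in every library, Srsf5 -0.12, Srsf11 -0.11, Clk1 -0.070 and Clk4 -0.030 (vehicle against WT), Srsf3 -0.055, Srsf11 -0.039 and Tra2a -0.063 (combined against WT), Clk4 -0.0080 (ruxolitinib against WT). With only the groups compared in the fit, Srsf5 -0.035 and Srsf11 -0.036 (vehicle against WT), Tra2a -0.0046 (combined against WT), Srsf2 0.045 and Clk1 0.010 (AG221 against WT). Without A8, A10 and A16, Srsf3 -0.029, Srsf5 -0.084, Srsf7 -0.089 and Clk4 -0.32 (AG221 against vehicle), Srsf1 0.13, Srsf6 0.29 and Clk4 -0.046 (ruxolitinib against vehicle), Srsf2 0.17, Srsf5 -0.071 and Clk4 -0.22 (AG221 against WT), Srsf5 0.012 and Clk1 0.092 (combined against AG221), Clk1 -0.28 and Clk4 -0.27 (AG221 against ruxolitinib), Srsf5 0.17, Srsf7 0.026 and Clk1 0.23 (departure). With GC content offsets, Srsf11 -0.085 (combined against vehicle), Srsf5 0.21, Srsf7 0.26 and Clk1 0.14 (combined against WT), Srsf2 0.38 and Clk1 0.35 (AG221 against WT), Srsf5 0.27, Srsf11 0.029 and Clk1 0.42 (ruxolitinib against WT), Srsf5 -0.058 (combined against ruxolitinib), Clk1 -0.066 and Clk4 -0.026 (AG221 against ruxolitinib). With RLE normalization, Srsf7 0.0093 (combined against WT), Srsf2 0.040 and Clk1 0.0072 (AG221 against WT). With no filter beyond 1 count, Srsf7 0.019 (combined against WT), Srsf2 0.045 and Clk1 0.0100 (AG221 against WT). With DESeq2, Srsf7 0.017 (combined against WT), Srsf2 0.041 and Clk1 0.0067 (AG221 against WT). With each library left out in turn, the ranges that crossed 0 were Srsf5 -0.037 to 0.074, Srsf11 -0.18 to 0.26 and Clk1 -0.0098 to 0.20 (vehicle against WT), Clk1 -0.25 to 0.0058 and Clk4 -0.058 to 0.14 (AG221 against vehicle), Srsf1 -0.36 to 0.20, Srsf3 -0.21 to 0.016, Srsf6 -0.36 to 0.30 and Clk4 -0.057 to 0.089 (ruxolitinib against vehicle), Srsf5 -0.094 to 0.017 and Srsf11 -0.16 to 0.28 (combined against vehicle), Srsf5 -0.066 to 0.024, Srsf7 -0.037 to 0.096 and Tra2a -0.058 to 0.30 (combined against WT), Srsf2 -0.12 to 0.19 and Clk1 -0.13 to 0.078 (AG221 against WT), Srsf11 -0.45 to 0.029 and Clk1 -0.14 to 0.031 (ruxolitinib against WT), Clk1 -0.039 to 0.13 and Clk4 -0.074 to 0.13 (AG221 against ruxolitinib), Clk1 -0.18 to 0.077 (departure).

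No paired analysis was possible because no replicate names are shared between groups. With 3 libraries a group, the depth did not limit the members, and the spread between libraries did. RLE factors moved no group mean of a member by more than its SD.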
